A study of Homo sapiens with 12 samples.

Results

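The genes described here are 10 secretory and mucosal genes of digestive and other lining epithelia: AGR2, AGR3, TFF1, TFF2, TFF3, MUC1, MUC13, BPIFB1, CDH17 and UPK1B. They were selected by name with measured values of these libraries in view, namely their levels in HCCLM3 and, for UPK1B at least, the change of HCCLM3 with co-culture. Levels, and changes in HCCLM3, are therefore given as descriptions. Where the fit over all genes put a change in HCCLM3 past its threshold, this is recorded as a fact of that fit and is not a test of these genes. All 10 were among the 60612 genes of the HCCLM3 table, and 6 were among the 32507 genes of the LX2 table, which does not list AGR3, TFF1, TFF2 or TFF3. Every gene of the LX2 table had at least 1 count in an LX2 library, so the 6 are genes with reads there. RNA sequencing was done on 12 libraries of 2 human cell lines grown in a chip device that models a tumour. HCCLM3 is a line of liver cancer cells, labelled hepatoma, and LX2 is a line of hepatic stellate cells, the collagen-making cells of the liver. The 4 groups, each of 3 libraries, were HCCLM3 kept alone, HCCLM3 kept with LX2, LX2 kept alone and LX2 kept with HCCLM3. Every group carries the genotype label WT, no drug or other agent is named, and the time in the device was not given in the sources used here. Whether the replicates were grown as separate cultures is left unsaid by the labels, and a p-value here covers only library-to-library spread, part or all of which may be technical. The way the 2 cell kinds were separated for RNA extraction was likewise not given in the sources used here.

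In mucous epithelia these genes serve making, guarding and holding together the lining. AGR2 and AGR3 are protein disulfide isomerases of the endoplasmic reticulum, and AGR2 is needed for the folding of mucins. The trefoil factors TFF1, TFF2 and TFF3 are small peptides secreted with mucus, while MUC1 and MUC13 are mucins anchored in the cell membrane. BPIFB1 is a secreted protein of the BPI fold family found in airway and upper digestive mucus, CDH17 is the liver-intestine cadherin, and UPK1B is a tetraspanin of the urothelial plaque. Healthy hepatocytes are not known for this programme, which belongs to stomach, gut, airway and urothelium.

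Upstream sequences are shown for 4 of the genes because the results turn on them: AGR2 and AGR3 are neighbours with very unequal levels, BPIFB1 showed the largest rise in HCCLM3 and UPK1B the largest of the falls past the threshold. RefSeq promoter entries, on GRCh38.p14, matched 6 of the 10 genes (AGR2, AGR3, MUC1, MUC13, BPIFB1 and UPK1B). The stretches below run from 250 bases before the RefSeq start up to the nearest annotated exon and are written 5′ to 3′ on the strand of the gene, with matched motif letters in capitals. They lie at chr7:16805081-16805249 on the minus strand for AGR2, chr7:16881988-16882233 on the minus strand for AGR3, chr20:33282964-33283134 on the plus strand for BPIFB1 and chr3:119173348-119173516 on the plus strand for UPK1B. The windows of AGR2 and BPIFB1 lie inside the spans that the deposited tables give these genes, so the RefSeq start is not the outer end of the deposited gene.
AGR2: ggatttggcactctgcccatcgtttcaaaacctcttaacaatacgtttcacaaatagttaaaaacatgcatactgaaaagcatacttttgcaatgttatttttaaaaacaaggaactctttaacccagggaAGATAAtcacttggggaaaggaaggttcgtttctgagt
AGR3: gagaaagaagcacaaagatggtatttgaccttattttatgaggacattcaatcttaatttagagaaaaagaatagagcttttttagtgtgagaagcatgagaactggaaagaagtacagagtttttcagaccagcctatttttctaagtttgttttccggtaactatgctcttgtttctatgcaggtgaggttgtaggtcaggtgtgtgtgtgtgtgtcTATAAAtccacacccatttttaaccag
BPIFB1: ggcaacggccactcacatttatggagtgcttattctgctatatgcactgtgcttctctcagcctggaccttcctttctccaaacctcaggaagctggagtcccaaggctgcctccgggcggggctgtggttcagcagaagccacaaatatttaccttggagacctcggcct
UPK1B: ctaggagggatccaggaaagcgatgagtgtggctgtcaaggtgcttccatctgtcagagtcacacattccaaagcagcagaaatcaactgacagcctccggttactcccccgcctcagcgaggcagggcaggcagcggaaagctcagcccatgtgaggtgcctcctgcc
The stretches of AGR2 and AGR3 were poor in G and C, at 36.1% and 36.6%, whereas those of BPIFB1 and UPK1B held 54.4% and 58.6%.

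Short motifs were searched on both strands of the 250 bases before each start, and the same search was made over 34788 promoters of that length. The capitals in AGR2 are AGATAA, the motif of GATA factors. It lies 119 bases before the RefSeq start, and 9.21% of all promoters hold it. The capitals in AGR3 are TATAAA, the TATA box, at 31 bases before the RefSeq start. MUC1 has the same letters at 24 bases before its RefSeq start. The TATA box is held by 10.8% of all promoters and was added to the search after the sequences had been seen. The forkhead motifs TGTTTAC and TGTTTGC (2.98% and 3.23% of all promoters), the oestrogen response element (0.0402%) and the hypoxia response cores ACGTG and GCGTG (18.5% and 32.2%) had no match in the 6 promoters. BPIFB1, UPK1B and MUC13 had no match to any of the 7 motifs in this window. Only these letters were searched, so other forms of the same motifs may be present.

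Total counts per library were 65675929 to 77712308 in HCCLM3 and 61836616 to 69891842 in LX2. Levels are given in FPKM, the authors' fragment counts per gene length and library depth, as mean ± SD of 3 libraries. The 2 tables were deposited separately, and a comparison of levels between lines is therefore descriptive. The labels were checked against marker genes. ALB, the main plasma protein of hepatocytes, stood at 0.531 ± 0.134 FPKM in HCCLM3 alone, and 6 of 30 hepatocyte markers reached 1 FPKM there. APOA1, an apolipoprotein of hepatocytes, stood at 0.177 FPKM. RBP4 at 33.3 ± 1.40, APOH at 17.3 ± 0.852 and FGA at 4.73 ± 0.177 FPKM were the highest hepatocyte markers there. Of the type I collagen genes of stellate cells, COL1A1 stood at 2.72 ± 0.0390 FPKM in LX2 alone and COL1A2 had no count, and 9 of 23 stellate and fibroblast markers reached 1 FPKM there. In each line, under its own label, most of these markers stayed below that level. Across bulk libraries, fewer cells of a kind and less RNA per cell cannot be told apart.

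In HCCLM3 alone the levels of the 10 genes spanned more than 3 orders of size, from AGR2 at 210.7 ± 13.2 FPKM to AGR3 at 0.0955 ± 0.0587 FPKM. The order was AGR2, CDH17, UPK1B, MUC13, MUC1, TFF1, TFF2, BPIFB1, TFF3 and AGR3. MUC1 and TFF1 overlapped in their libraries, as did BPIFB1 and TFF3, and the other neighbours in this order did not overlap. There were 7 genes at or above 1 FPKM and 4 at or above 10 FPKM. AGR2 ranked 166th of all genes by mean FPKM, CDH17 930th, UPK1B 1628th and MUC13 2689th, among 10764 genes that reached 1 FPKM. With LX2 present the order was AGR2, CDH17, MUC13, UPK1B, BPIFB1, MUC1, TFF1, TFF3, TFF2 and AGR3. UPK1B and BPIFB1 then overlapped, as did TFF1 and TFF3, and TFF2 and AGR3. The plot of FPKM by library in HCCLM3 shows both orders.

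**Figure D1:**
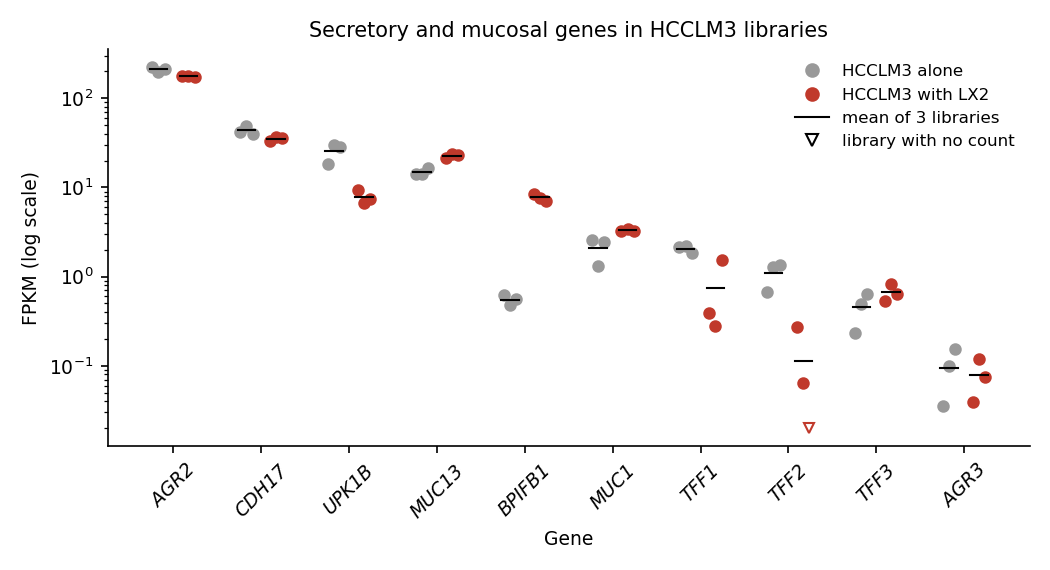
FPKM (log scale) of the 10 genes in each of 3 libraries of HCCLM3 alone (grey) and 3 of HCCLM3 with LX2 (red), with black lines at the means and an open triangle for a library with no count. AGR2 lies highest in both groups, BPIFB1 lies higher with LX2 (7.74 against 0.551 FPKM) and UPK1B lower (7.84 against 25.7 FPKM).

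Over the fit of 18045 genes in HCCLM3, a gene is called where the edgeR quasi-likelihood test gave a Benjamini-Hochberg adjusted p under 0.05. Of the 10 genes, 9 were tested, since AGR3 did not pass the filter on low counts. The call was up for MUC13 and BPIFB1, where 10.1% of all tested genes were called up. The call was down for AGR2, CDH17 and UPK1B, where 11.6% of all tested genes were called down. The other 4, TFF1, TFF2, TFF3 and MUC1, were not called. The libraries of the 2 groups did not overlap for 8 of the 9 tested genes, against 44.4% of all tested genes. The median log2 fold change was -0.43 over the 9 genes and 0.033 over all tested genes. Nothing is read from these counts, because the genes were chosen with this contrast known. With library totals in place of the normalisation factors the median of all genes was 0.21, a shift over 0.1, and no gene among the 9 changed direction.

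The plot of changes in HCCLM3 ranks the genes from TFF2 at the low end to BPIFB1 at the high end, with the 5 called genes filled.

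**Figure D2:**
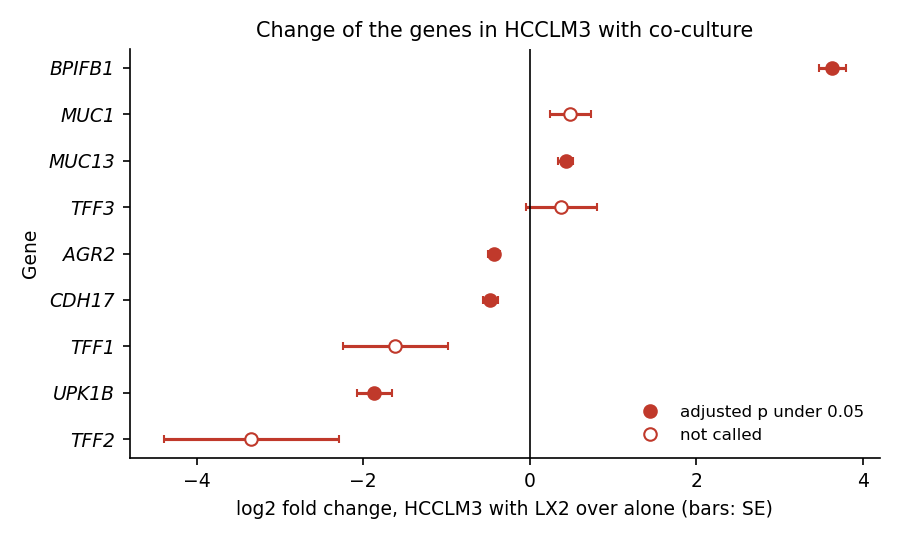
Log2 fold change of HCCLM3 with LX2 over HCCLM3 alone for the 9 tested genes, with bars of 1 SE, filled where the adjusted p over all genes was under 0.05. BPIFB1 is at 3.63, UPK1B at -1.87 and TFF2, with the widest bar (SE 1.05), at -3.35.

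Among the disulfide isomerases, AGR2 (ENSG00000106541, chromosome 7, 16791811 to 16833433, minus strand) had 57042, 49001 and 47803 counts in HCCLM3 alone against 38482, 40111 and 38072 with LX2. The corresponding FPKM values were 222.3, 196.4 and 213.6 alone and 177.0, 178.1 and 173.0 with LX2. Every library with LX2 lay below every library without it. AGR2 fell by 0.43 on the log2 scale (SE 0.074), a 1.34-fold change, and by 0.25 with library totals. It remained among the most abundant transcripts, ranked 207th of all genes with LX2. The genes whose values ran closest to AGR2 over the 6 HCCLM3 libraries were SF3B2, SLC2A8 and FXR2, with root mean square differences of 0.018, 0.022 and 0.025 in centred log2(CPM + 1) among 6501 candidates.

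AGR3 (ENSG00000173467, chromosome 7, 16859412 to 16881983, minus strand) is separated from AGR2 by 25979 bases. It had 5, 11 and 15 counts in HCCLM3 alone against 4, 12 and 7 with LX2, so the groups overlapped. The mean FPKM was 0.0955 ± 0.0587 alone and 0.0782 ± 0.0400 with LX2. The summed counts per depth stood at a ratio of 0.822 with an exact 95% interval of 0.458 to 1.46, which covers counting error only. Mean FPKM of AGR2 was 2207 times that of AGR3 alone and 2250 times with LX2. The 2 neighbouring family members were thus far apart in level in both groups.

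This list and those below were chosen with earlier results of these data known. Many genes named from them were picked by smallest p in the same fit. Their adjusted p-values, in either line, are values of the fit over all genes and not independent tests. The other protein disulfide isomerases, the wider family that AGR2 and AGR3 belong to, numbered 20, of which 16 reached 1 FPKM in HCCLM3 alone. P4HB, PDIA3 and PDIA4, the general folding enzymes with the highest levels, stood at 268 ± 29.5, 115 ± 4.93 and 93.5 ± 2.95 FPKM. Of 18 tested, 3 were called up and 1 down in HCCLM3, with a median log2 fold change of -0.0014. Over all tested genes, 10.1% were called up and 11.6% down. PDIA2, a pancreatic isomerase, rose from 0.949 to 2.08 FPKM (log2 change 0.96, edgeR quasi-likelihood adjusted p = 0.00793). DNAJC10, a reductase of the endoplasmic reticulum, fell from 2.40 to 1.56 FPKM (log2 change -0.79, adjusted p = 0.00227).

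The trefoil factors were present at low counts. TFF1 (ENSG00000160182, chromosome 21, 42362282 to 42366535, minus strand), TFF2 (ENSG00000160181, 42346357 to 42350997) and TFF3 (ENSG00000160180, 42311667 to 42315651) lie side by side on the same strand, with gaps of 11285 and 30706 bases. TFF1, the trefoil of the stomach surface, had 98, 98 and 74 counts in HCCLM3 alone against 16, 12 and 61 with LX2. The third replicate with LX2 stood above the other two but below every library alone. The mean was 2.06 ± 0.190 FPKM alone and 0.737 ± 0.700 with LX2. The fitted log2 change was -1.61 (SE 0.63), which was not called. Without replicate 3 of HCCLM3 with LX2 it was -2.70 and was called.

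TFF2, the trefoil of gastric neck cells, had 44, 83 and 77 counts in HCCLM3 alone against 16, 4 and 0 with LX2, with no overlap. The mean was 1.10 ± 0.372 FPKM alone and 0.113 ± 0.143 with LX2. Its log2 change of -3.35 (SE 1.05) was not called. It was called by DESeq2 (-3.36), by limma on log2(FPKM + 1) (-0.91) and on log2(FPKM + 0.1) (-2.65), and without replicate 1 of HCCLM3 with LX2 (-5.07). TFF3, the trefoil of intestinal goblet cells, had 27, 53 and 61 counts alone and 49, 81 and 60 with LX2, and these overlapped. Its log2 change was 0.38 (SE 0.42) and was not called.

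MUC1 and MUC13 were the membrane mucins of the group. MUC1 (ENSG00000185499, chromosome 1, 155185824 to 155192915, minus strand) had 1124, 562 and 926 counts in HCCLM3 alone against 1194, 1330 and 1229 with LX2. Replicate 2 alone was the lowest library, and all 3 with LX2 stood above the 3 without once scaled to depth. The mean was 2.10 ± 0.681 FPKM alone and 3.31 ± 0.127 with LX2, and the log2 change of 0.49 (SE 0.25) was not called. MUC1 shares 48 exon bases on the same strand with AL713999.1, which had 111 counts in HCCLM3 alone against 0 with LX2. The rule for reads in shared bases was not given in the sources used here.

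MUC13 (ENSG00000173702, chromosome 3, 124905442 to 124934751, minus strand), a mucin of the intestinal surface, had 4604, 4448 and 4734 counts in HCCLM3 alone. With LX2 it had 5886, 6735 and 6414 counts, above every library alone. The mean was 14.98 ± 1.49 FPKM alone and 22.7 ± 1.16 with LX2. MUC13 rose by 0.43 on the log2 scale (SE 0.088), and the call was lost without replicate 2 or without replicate 3 of HCCLM3 with LX2. Its level was 7.14 times that of MUC1 alone and 6.86 times with LX2.

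The other mucins form a list of 14 genes, none of which reached 1 FPKM in HCCLM3 alone and 5 of which had no count there. Of 7 tested, 3 were called up and 1 down, with a median log2 fold change of 0.61. Over all tested genes, 10.1% were called up and 11.6% down. MUC5AC, the gel-forming mucin of the stomach surface, fell from 0.985 to 0.269 FPKM (log2 change -2.04, edgeR adjusted p = 0.000702). MUC15 rose from 0.464 to 1.43 FPKM (log2 change 1.45, adjusted p = 0.00286), and MUC4 rose 2.46-fold to 0.331 FPKM (adjusted p = 0.00572). Both are membrane mucins, as MUC1 and MUC13 are. MUC2, the gel-forming mucin of the gut, stood at 0.0011 FPKM alone and had no count with LX2 (it was named after its values were seen).

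BPIFB1 (ENSG00000125999, chromosome 20, 33273480 to 33309871, plus strand) showed the largest change among the 10 genes. It had 174, 131 and 138 counts in HCCLM3 alone against 2028, 1857 and 1707 with LX2. The FPKM values were 0.617, 0.475 and 0.560 alone and 8.55, 7.56 and 7.11 with LX2. The 2 groups were far apart, with little spread inside each. BPIFB1 rose by 3.63 on the log2 scale (SE 0.16), a 12.4-fold change that ranked 177th in size of 18045 genes. By level it moved from rank 12205 to rank 4697 of all genes. The genes with the closest pattern were ANGPTL4, CFI and SOX18, at root mean square differences of 0.18, 0.21 and 0.22.

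Of the 18 other genes of the BPI fold family and mucosal defence, 3 reached 1 FPKM in HCCLM3 alone and 11 had no count. Of 6 tested, 4 were called up and none down, with a median log2 fold change of 2.54. Over all tested genes, 10.1% were called up and 11.6% down. LTF and BPI, both called up, passed the filter on low counts only through HCCLM3 with LX2. Their calls up were set by the filter, so nothing is read from this count or its median. LCN2, an iron-binding defence protein, rose from 2.64 ± 0.548 to 46.2 ± 1.86 FPKM (log2 change 3.96, edgeR adjusted p = 0.000157). LTF, lactoferrin, had 0, 0 and 4 counts alone and 85, 82 and 62 with LX2. BPI itself, a granulocyte protein, had no count alone and 39, 30 and 14 with LX2. S100P, the most abundant gene of the list, stood at 470 ± 39.5 FPKM alone and 665 ± 73.8 with LX2, with a log2 change of 0.33 that was not called (adjusted p = 0.0845).

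Genes of blood cells moved in the same libraries. The 10 red cell genes summed to 0, 6 and 4 counts per library in HCCLM3 alone and to 9127, 6587 and 7750 with LX2. There were 7 of the 10 with no count alone and none with LX2. The 18 leukocyte and granulocyte genes summed to 1345, 1098 and 1012 counts alone and to 3155, 3092 and 3021 with LX2, with 12 and 0 genes without a count. In LX2 the red cell sums were 6, 15 and 11 counts alone and 4, 112 and 33 with HCCLM3. The part of these transcripts in the rises of BPIFB1, LCN2, LTF and BPI was not tested.

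CDH17 (ENSG00000079112, chromosome 8, 94127162 to 94208555, minus strand) was second in level in both HCCLM3 groups. It had 15074, 17108 and 12631 counts alone and 10061, 11662 and 11031 with LX2. The FPKM values were 41.9, 48.9 and 40.2 alone and 33.0, 36.9 and 35.7 with LX2. The libraries with LX2 lay below those without, at a smaller distance than for UPK1B. CDH17 fell by 0.48 on the log2 scale (SE 0.091), a 1.39-fold change. The call was lost with library totals (-0.30), with limma on log2(FPKM + 1) (-0.30) or log2(FPKM + 0.1) (-0.31), and without replicate 3 of HCCLM3 with LX2 (-0.49).

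The other adhesion genes of liver and intestine numbered 10, of which 6 reached 1 FPKM in HCCLM3 alone. CDH16, the kidney cadherin of the same subfamily, had no count (named after its values were seen). Of 9 tested, 2 were called up and 1 down, with a median log2 fold change of 0.61. Over all tested genes, 10.1% were called up and 11.6% down. CLDN3, called up, had 0, 4 and 4 counts alone against 27, 42 and 29 with LX2. It passed the filter on low counts only through HCCLM3 with LX2, so its call up was set by the filter. CLDN7, a tight junction protein, rose from 1.12 to 6.56 FPKM (log2 change 2.37, edgeR adjusted p = 0.000786), and ITGB4, an integrin of hemidesmosomes, fell from 33.0 to 18.2 FPKM (log2 change -1.02, adjusted p = 0.000581). CLDN4 was the most abundant at 46.0 ± 2.37 FPKM alone and 50.4 ± 1.54 with LX2 and was not called (adjusted p = 0.792).

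UPK1B (ENSG00000114638, chromosome 3, 119173517 to 119205143, plus strand) had 3843, 6142 and 5202 counts in HCCLM3 alone against 1648, 1242 and 1349 with LX2. The FPKM values were 18.3, 30.2 and 28.5 alone and 9.27, 6.74 and 7.50 with LX2. Replicate 1 was the lowest of the libraries alone and still stood above every library with LX2. UPK1B fell by 1.87 on the log2 scale (SE 0.21), a 3.65-fold change that ranked 824th in size. Its rank by level moved from 1628 to 4645.

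The partner of UPK1B in the urothelial plaque, UPK3A, had no count in either HCCLM3 group, and UPK2 stood at 0.0494 FPKM alone and 0.0068 with LX2 (both were named after their values were seen). UPK3BL1, a uroplakin-like gene with a near-identical copy, had 2043, 1672 and 36 counts alone and 2309, 10 and 2320 with LX2, a spread within each group that leaves its level uncertain. Of the 12 uroplakin and urothelial genes besides UPK1B, 4 reached 1 FPKM in HCCLM3 alone. Of 8 tested, 2 were called up and 1 down, with a median log2 fold change of 0.38. Over all tested genes, 10.1% were called up and 11.6% down. The 2 called up were KRT5 and TP63. KRT5 had no count alone and 70, 34 and 24 with LX2, and TP63 had 0, 10 and 11 against 127, 82 and 160. Both passed the filter on low counts only through HCCLM3 with LX2, so nothing is read from this count. PPARG, a regulator of urothelial and fat cells, stood at 22.1 ± 2.28 FPKM alone and 20.2 ± 0.873 with LX2 and was not called (adjusted p = 0.0699). KRT7, a keratin of simple epithelia, fell from 4.60 to 2.25 FPKM (log2 change -1.19, edgeR adjusted p = 0.0088).

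Markers of the epithelia these genes come from were present in part in HCCLM3 alone. Of 22 other intestinal genes, 9 reached 1 FPKM and 7 had no count. CEACAM6 at 375.5 ± 15.9 FPKM, KRT20 at 303 ± 10.7 and LGALS4 at 33.7 ± 3.32 were the highest, and these are an adhesion protein, a keratin and a galectin of gut epithelium. The intestinal regulator CDX2 stood at 3.23 ± 0.289 FPKM, whereas CDX1, the fatty acid carrier FABP1 and the brush border enzyme SI had no count (all 4 were named after their values were seen). Of 14 gastric mucous genes, 3 reached 1 FPKM (ANXA10 at 182 ± 5.93, VSIG1 at 85.2 ± 8.05 and SOX2 at 21.7 ± 1.70) and 5 had no count. Of 18 goblet and secretory genes, 6 reached 1 FPKM and 7 had no count. The plot of related gene lists shows abundant genes beside absent ones within each of these lists. Of 12 cholangiocyte markers, genes of bile duct epithelium that the plot leaves out, 7 reached 1 FPKM and 2 had no count. KRT19 at 207 ± 20.8 FPKM, SPP1 at 139 ± 6.50 and SLC4A2 at 26.5 ± 0.740 were the highest.

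**Figure D3:**
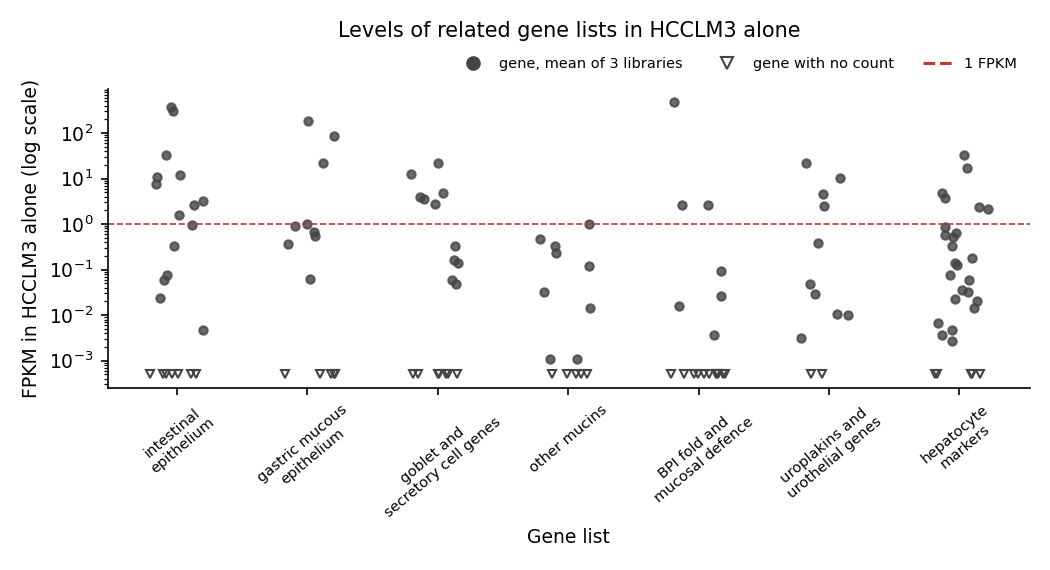
Mean FPKM in HCCLM3 alone (log scale) of each gene in 7 lists of related genes, with the 10 genes themselves left out, a dashed line at 1 FPKM and open triangles for genes with no count. There were 9 of 22 intestinal, 3 of 14 gastric, 6 of 18 goblet, 0 of 14 other mucin, 3 of 18 defence, 4 of 12 urothelial and 6 of 30 hepatocyte genes at or above the line.

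With LX2 present these lists moved in both directions in HCCLM3, where 10.1% of all tested genes were called up and 11.6% down. Of 13 intestinal genes tested, 1 was called up and 4 down, with a median log2 fold change of 0.027. CEACAM6 fell from 375.5 to 137 FPKM (log2 change -1.62, edgeR adjusted p = 0.000131) and CEACAM5, its relative, from 7.43 to 1.70 FPKM (log2 change -2.29, adjusted p = 0.000604). The brush border protein VIL1 fell from 10.9 to 5.30 FPKM (log2 change -1.20, adjusted p = 0.000637). LGALS4 rose from 33.7 to 57.2 FPKM (log2 change 0.60, adjusted p = 0.0145). Of 9 gastric genes tested, 2 were called up and 4 down, with a median of -0.37. VSIG1 fell from 85.2 to 33.1 FPKM (log2 change -1.53, adjusted p = 0.000333), while LYZ, lysozyme, rose from 0.546 to 5.06 FPKM (log2 change 3.03, adjusted p = 0.00102) and is also in the leukocyte list.

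The same shares, 10.1% called up and 11.6% down, stand beside the next lists. Of 10 goblet and secretory genes tested, 3 were called up and 4 down, with a median log2 fold change of 0.34. SPINK1, a secreted trypsin inhibitor, rose from 4.75 to 20.5 FPKM (log2 change 1.94, edgeR adjusted p = 0.000711) and the sialyltransferase ST6GALNAC1 from 3.64 to 7.65 FPKM (log2 change 0.91, adjusted p = 0.00261). FCGBP, a mucus protein secreted by goblet cells, fell from 2.83 to 0.849 FPKM (log2 change -1.90, adjusted p = 0.000716). Of 14 transcription factors of secretory lineages tested, 3 were called up and 1 down, with a median of 0.080. SPDEF, a regulator of goblet cells, fell from 12.4 to 7.49 FPKM (log2 change -0.89, adjusted p = 0.00559), whereas GATA6 rose from 8.13 to 14.6 FPKM (log2 change 0.68, adjusted p = 0.0105) and FOXA1 from 6.71 to 9.66 FPKM (log2 change 0.36, adjusted p = 0.0247). Of 18 hepatocyte markers tested, 7 were called up and none down, with a median of 0.83. The fibrinogen chain FGB rose from 2.16 to 33.4 FPKM (log2 change 3.79, edgeR adjusted p = 6.67e-06). FGG rose from 0.569 to 12.8 FPKM (log2 change 4.31, adjusted p = 0.000581) and FGA from 4.73 to 20.2 FPKM (log2 change 1.92, adjusted p = 0.000149).

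In LX2 alone, MUC1 was the one gene of the 6 listed that reached 1 FPKM, and 4 of the 6 (AGR2, BPIFB1, CDH17 and UPK1B) had no count in any library. The fit in LX2 covered 19671 genes, and the reasons given for the choice of the genes concern HCCLM3. Of the 6, 5 were tested and all were called. There were 4 called up (AGR2, MUC13, CDH17 and UPK1B), where 15.4% of all tested genes were called up. These 4 had 0 to 5 counts per library in LX2 alone and passed the filter on low counts only through LX2 with HCCLM3, so a call in that direction was set by the filter, nothing is read from their count, and no p-value is given for them. MUC1 was called down, where 16.6% of all tested genes were called down. BPIFB1 did not pass the filter, with 0 counts in each library alone and 0, 0 and 4 with HCCLM3. With HCCLM3 present the order of levels was MUC1, AGR2, UPK1B, CDH17, MUC13 and BPIFB1, and UPK1B and CDH17 overlapped. MUC1 was again the one gene at or above 1 FPKM.

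**Figure D4:**
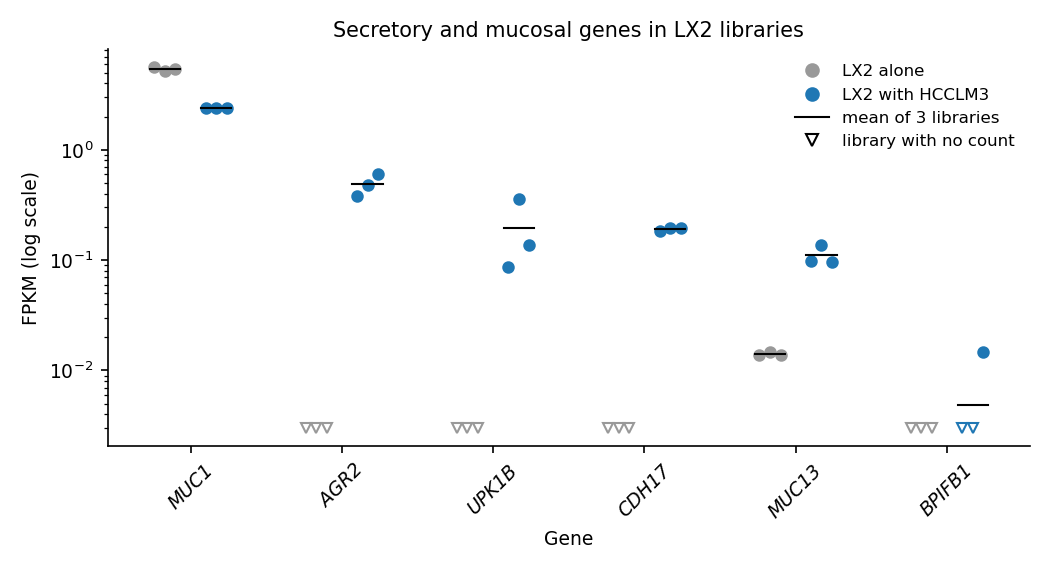
FPKM (log scale) of the 6 listed genes in each of 3 libraries of LX2 alone (grey) and 3 of LX2 with HCCLM3 (blue), with black lines at the means and open triangles for libraries with no count. MUC1 lies highest in both groups and lower with HCCLM3 (2.38 against 5.37 FPKM), while AGR2, CDH17 and UPK1B have no count in LX2 alone.

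MUC1 had 2065, 1796 and 1971 counts in LX2 alone and 869, 925 and 941 with HCCLM3. The FPKM values were 5.59, 5.16 and 5.37 alone and 2.39, 2.38 and 2.38 with HCCLM3, with no overlap. MUC1 fell by 1.20 on the log2 scale (SE 0.060), a 2.29-fold change (edgeR quasi-likelihood adjusted p = 3.5e-05). It lay lower with HCCLM3 in 3 of 3 libraries than in any library alone. The genes were chosen with earlier results of these data known, so the p-value of MUC1 may not be independent of that choice. In HCCLM3, in contrast, the MUC1 value was higher with co-culture and not called, and the difference between the 2 changes was 1.65 on the log2 scale (SE 0.28).

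AGR2 had no count in LX2 alone and 82, 112 and 142 counts with HCCLM3. Its mean FPKM with HCCLM3 was 0.490 ± 0.115. Against a floor of 3 counts over the group, AGR2 was at least 106-fold higher with HCCLM3. CDH17 had no count alone and 55, 63 and 64 with HCCLM3, at 0.192 ± 0.0062 FPKM, at least 57.5-fold higher. UPK1B had no count alone and 15, 67 and 26 with HCCLM3, at 0.194 ± 0.144 FPKM, at least 34.2-fold higher, with replicate 2 well above the others. These folds use counts summed over the group and bound only the zero in LX2 alone. They do not cover the spread between libraries with HCCLM3. All 3 genes were far lower in LX2 with HCCLM3 than in either HCCLM3 group.

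MUC13 had 4, 4 and 5 counts in LX2 alone and 27, 40 and 29 with HCCLM3. The mean was 0.0142 ± 0.00047 FPKM alone and 0.111 ± 0.0232 with HCCLM3. The fitted log2 change was 2.74 (SE 0.40). The summed counts per depth stood at a ratio of 7.01, with an exact 95% interval of 3.91 to 13.6 that covers counting error only. MUC13 passed the filter on low counts only through LX2 with HCCLM3, so these values describe the rise and do not test it. MUC13 was higher with co-culture in both lines, and the HCCLM3 change minus the LX2 change was -2.34 on the log2 scale (SE 0.23).

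The rises in LX2 were set beside those of other HCCLM3 transcripts. There were 56 genes of at least 20 FPKM in HCCLM3 alone and under 0.1 FPKM in LX2 alone, AGR2, CDH17 and UPK1B among them. Their rise in LX2 with HCCLM3, as a percent of the level in HCCLM3 alone, had a median of 0.577% over the genes, and library medians of 0.556%, 0.629% and 0.489%. The middle of the set ran from 0.339% to 0.815% (quartiles), and the 5th to 95th percentiles from 0.0830% to 2.04%. AGR2 rose by 0.179%, 0.229% and 0.288% of its HCCLM3 level in the 3 libraries, CDH17 by 0.423%, 0.444% and 0.450%, and UPK1B by 0.338%, 1.39% and 0.533%. MUC13, which at 14.98 FPKM is below the limit of the set, rose by 0.562%, 0.827% and 0.553%. All 4 lay within the 5th to 95th percentiles of the set on their means. AGR2, CDH17 and UPK1B belong to the set and the range holds most of it, so nothing is read from this. Taken as a percent of the level in HCCLM3 with LX2 instead, an alternative chosen after seeing the data, UPK1B was at 2.47%, above the 95th percentile of 2.45%, while the median of the set was 0.561%. The part of HCCLM3 cells or RNA in the LX2 libraries in these rises was not tested. In the other direction, 41 genes of LX2 had a median of 0.143% in HCCLM3 with LX2. The plot of these shares places the 3 genes along the set.

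**Figure D5:**
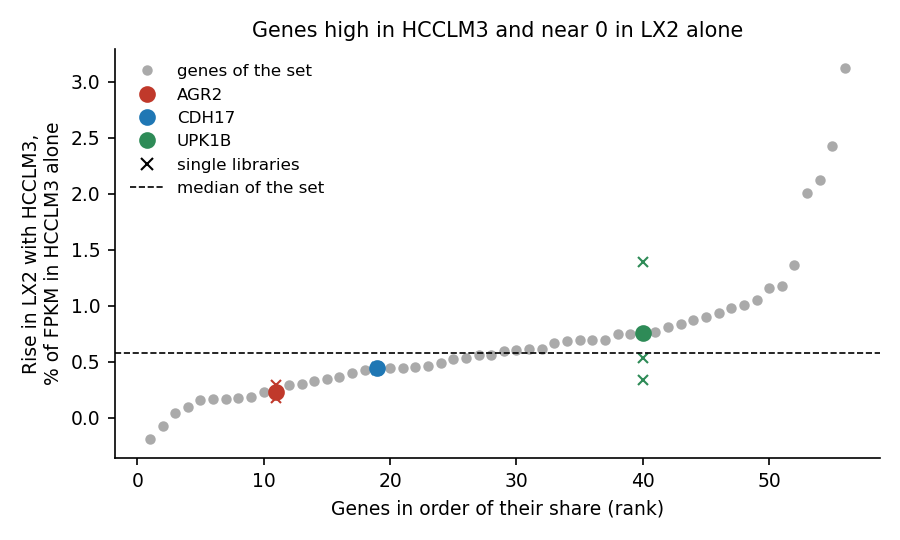
Rise in LX2 with HCCLM3 as a percent of the FPKM in HCCLM3 alone, for the 56 genes of the set in order of their share (grey), with AGR2, CDH17 and UPK1B in colour, crosses for single libraries and a dashed line at the median of 0.577%. AGR2 (0.232%) and CDH17 (0.439%) lie below the line and UPK1B (0.755%) above it, with its 3 libraries widely spread.

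The related lists differed among themselves in LX2. Over all genes tested there, 15.4% were called up and 16.6% down. Of 8 intestinal genes tested, 6 were called up and 1 down. The counts were 2 up and 1 down of 7 gastric genes, 3 up and 0 down of 8 goblet genes, 3 up and 3 down of 11 transcription factors, and 0 of 3 other mucins. KRT20 stood at 0.0090 FPKM in LX2 alone and 2.10 with HCCLM3, and CEACAM6 had no count alone and 3.36 FPKM with HCCLM3. Both passed the filter only through LX2 with HCCLM3, and both were among the most abundant gut genes of HCCLM3. Of the other genes called up, LGALS4, CEACAM5, ANXA10, VSIG1, SPINK1, FOXA2 and HNF4A (named after its values were seen) also passed only that way. Calls up of such genes were set by the filter, so nothing is read from these counts. TSPAN8, a tetraspanin of gut epithelium that LX2 alone held at 3.07 FPKM, fell to 0.912 FPKM (log2 change -1.77, edgeR adjusted p = 0.00059). The epithelial transcription factor EHF fell from 2.10 to 0.239 FPKM (log2 change -3.15, adjusted p = 4.14e-05), and its relative ELF3 rose from 1.52 to 4.11 FPKM (log2 change 1.40, adjusted p = 6.35e-05).

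The difference between the changes of the 2 lines was fitted over 21511 genes and contains the HCCLM3 change that was known when the genes were chosen, so its values are descriptions and no p-value is given. Of the 6 genes, MUC1 was called as more positive in HCCLM3, where 9.65% of all tested genes were. AGR2, MUC13, CDH17 and UPK1B were called as more positive in LX2, where 11.5% of all tested genes were. For the 3 genes with no count in LX2 alone the fitted difference depends on the prior count, so it is given as a bound. With the floor of 3 counts, the changes in the 2 lines were at least 126-fold apart for AGR2. They were at least 71.1-fold apart for CDH17 and 110-fold for UPK1B. Such bounds cover only the zero in LX2 alone and not the spread between libraries. BPIFB1 was not called, and with at most 4 counts in LX2 its change there is not measurable at this depth.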

How the data were processed

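Per the labels, paired-end sequencing was done on polyadenylated RNA, which the protocol text calls adipose RNA. The protocol and the series text differ on the sequencer. The submitters' processing notes list Bowtie 0.12.2, HISAT2 2.0 and StringTie 1.3.0 without their roles, and the mouse build mm8. Identifiers in the tables are human. Of 58394 that GENCODE release 29 holds, 90.5% shared chromosome and a start or end with it, and positions were read as GRCh38. For strand use in counting, nothing was given in the sources used here.

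Both tables hold, as the authors deposited them per the file headers, a raw count and an FPKM value per gene and library, in 1 table per line. An FPKM at a count of 0 was read as 0. The members and lists were chosen with earlier results of these data known. Counts were tested with edgeR 4.0.16 (quasi-likelihood, TMM, minimum count 10, minimum total 15, R 4.3.3) on all genes that passed, per line, and over 12 libraries for the difference between lines, with Benjamini-Hochberg adjustment, two-sided, called under 0.05. The fit was tested on simulated data. Samples were grouped by the labels of cell line and treatment. Floors are 3 counts and intervals exact 95%, for counting error only. Alternatives were DESeq2 1.42.0, limma 3.58.1 on log2(FPKM + 1) or log2(FPKM + 0.1), library totals, other filters, a replicate block and leaving out each library.

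Genes named besides the 10 were taken from, per list (14 lists, 229 genes), up to 3 called genes with the smallest p in each line and the 3 with the highest FPKM in HCCLM3 alone, the 3 genes closest in pattern to AGR2 and to BPIFB1, and ALB, APOA1, COL1A1 and COL1A2. Others are marked where named. Protein sequences were not used here.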

Additional observations from a re-analysis of the deposited data

Results flagged for a closer look

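The fitted change with co-culture differed between the lines past the threshold of the fit over all genes (edgeR, change in HCCLM3 minus change in LX2, log2 scale) for 5 of the 6 genes listed in both tables. Over all tested genes, 9.65% were called as more positive in HCCLM3 and 11.5% as more positive in LX2. The HCCLM3 change enters each difference and was known when the genes were chosen, so these are values and not independent tests. AGR2, MUC13, CDH17 and UPK1B had 0 to 5 counts per library in LX2 alone, so nothing is read from the count of 5. The difference was 1.65 for MUC1 and -2.34 for MUC13. It was -10.07 for AGR2, -9.25 for CDH17 and -9.88 for UPK1B, which had no count in LX2 alone, so these 3 values depend on the prior count and are no bounds.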

How the results depend on the processing

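In HCCLM3, 3924 of 18045 tested genes were called. With 1 library left out 1918 to 2928 were called, the lowest without replicate 3 of HCCLM3 with LX2. Of the 10 genes 5 were called, and 4 to 6 with 1 library left out. In LX2, 6281 of 19671 tested genes were called, 3766 in a fit over all 12 libraries and 4934 to 5209 with 1 library left out. The 5 genes called in LX2 became 3 under the stricter filter, which tests fewer genes, and 5 were called with any library left out. The difference between lines had 4557 calls among 21511 tested genes, and 3602 to 4471 with 1 library left out. BPIFB1 in that difference was 0.23, changed sign to -0.27 without replicate 1 and -0.29 without replicate 2 of LX2 with HCCLM3, was 3.63 without replicate 3, and was called in none of them. Its only counts in LX2 were 4 in that replicate 3, so without it no LX2 library holds a count. The cause of the shifts was not tested. The median rise of the 56 genes in LX2 with HCCLM3 was 0.577% of their level in HCCLM3 alone. It was 0.834% with the limits of 50 FPKM and 0 counts, which keep 7 genes. The replicate numbers pair no libraries by the labels, and deviations of same-numbered libraries correlated at 0.017, 0.045 and 0.023 in HCCLM3, each library's best match, and at -0.039, 0.011 and -0.041 in LX2. With the number as a replicate block, 3315, 4795 and 4471 genes were called in HCCLM3, LX2 and the difference, and UPK1B in LX2 lost its call, as it did with limma on log2(FPKM + 1). Depth limits AGR3, the trefoil factors and BPIFB1 in LX2, which rest on few counts.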
